A study of Mus musculus with 18 samples.

Results

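Nr3c1, the gene of the glucocorticoid receptor, and 7 genes known as its direct targets were followed by RNA sequencing of sorted satellite cells, which are muscle stem cells, from mice. The targets were Zbtb16, Fkbp5, Tsc22d3, Per1, Klf9, Ddit4 and Sgk1. The 8 genes were chosen by name, and each had 1 row with numeric values among the 10792 genes with values, of 47729 genes listed. Satellite cells had been sorted from C57BL/6 hind-limb muscle as VCAM1 positive and negative for CD31, CD45 and Sca1. The 4 groups were activated cells of pregnant mice (6 libraries), activated cells of mice without pregnancy (6 libraries), non-activated cells of pregnant mice (3 libraries) and non-activated cells of mice without pregnancy (3 libraries). The activated groups are those of muscle injured with a needle, as read from the protocols, which give the age of the injured mice as 8.5 to 9 months. The mice without pregnancy are called virgin in the design and hereafter. Libraries of injured muscle were made after poly-A selection and those of non-injured muscle from total RNA after ribosomal RNA depletion with another kit, so activation and kit cannot be told apart in any comparison. No label gives the stage of pregnancy, the time after injury or whether each library is 1 animal. The p-values therefore measure only the spread between these libraries, which may be technical.

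The glucocorticoid receptor is a nuclear receptor that waits in the cytoplasm in a complex with the chaperone Hsp90 and its cochaperones. When corticosterone binds, the receptor moves to the nucleus, where it binds palindromic DNA elements at genes it induces and represses inflammatory genes, in part through other transcription factors. In skeletal muscle, glucocorticoids are known for promoting fibre wasting, and the targets followed here include feedback regulators of the receptor, of the circadian clock and of the growth pathway through mTORC1.

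Libraries held 14043324 to 24336842 counted reads. Reads of the mitochondrial genome made up 2.16% to 2.54% of counts in the activated libraries and 0.23% to 0.46% in the non-activated ones. Of 12 satellite cell markers, 10 had values, and Pax7, the defining transcription factor of the lineage, had at least 4555 normalized counts in every library (a normalized count is a read count divided by the size factor of its library). Leukocyte markers with values, 7 of the 16 listed, summed to 1844 to 8268 normalized counts in activated cells of pregnant mice, against 893 to 1360 in activated cells of virgin mice, although the sort gated against CD45. In non-activated cells the same sum was 67.7 to 221 in pregnant mice and 172 to 306 in virgin mice. Ptprc, the gene of CD45, was not analysed here, because it has no values in the table.

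Promoters from RefSeq (GRCm38.p6), 250 bases before each annotated start, were matched for 6 members with 14 starts and searched on both strands. The strict glucocorticoid response element (AGAACA, any 3 bases, TGTTCT) was in 3 of 32851 mouse promoters (0.00913%), and 1 of these was an Sgk1 promoter, where it lay 189 bases before the start. The Sgk1 and Per1 promoters are shown because they carry that element and the clock's E-box, CACGTG, the letters in capitals. They are at chr10:21993640-21993889 (plus strand) and chr11:69098699-69098948 (plus strand).
Sgk1: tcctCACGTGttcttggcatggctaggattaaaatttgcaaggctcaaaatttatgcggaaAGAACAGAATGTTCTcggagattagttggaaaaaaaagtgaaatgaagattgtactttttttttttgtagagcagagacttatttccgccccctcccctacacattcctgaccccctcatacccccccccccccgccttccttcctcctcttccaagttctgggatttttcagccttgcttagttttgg
Per1: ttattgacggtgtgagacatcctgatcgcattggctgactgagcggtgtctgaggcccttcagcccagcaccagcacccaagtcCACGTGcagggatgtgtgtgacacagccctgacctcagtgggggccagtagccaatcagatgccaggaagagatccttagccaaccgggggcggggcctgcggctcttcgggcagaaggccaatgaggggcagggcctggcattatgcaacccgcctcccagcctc

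The E-box lay 246 bases before the Sgk1 start, 166 before this Per1 start and 169 before the Fkbp5 start at chr17:28486150-28486399 (minus strand). It was in 6.02% of all promoters of this length. A relaxed form of the glucocorticoid element (GNACA, any 3 bases, TGTNC) was in 0.387% of promoters and among the members only at that Sgk1 start, where it overlaps the strict form. The half-site TGTTCT, in 16.1% of promoters, was at 3 of 6 Sgk1 starts and 1 of 3 Tsc22d3 starts. These matches describe letters in a window and not binding.

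**Figure D1:**
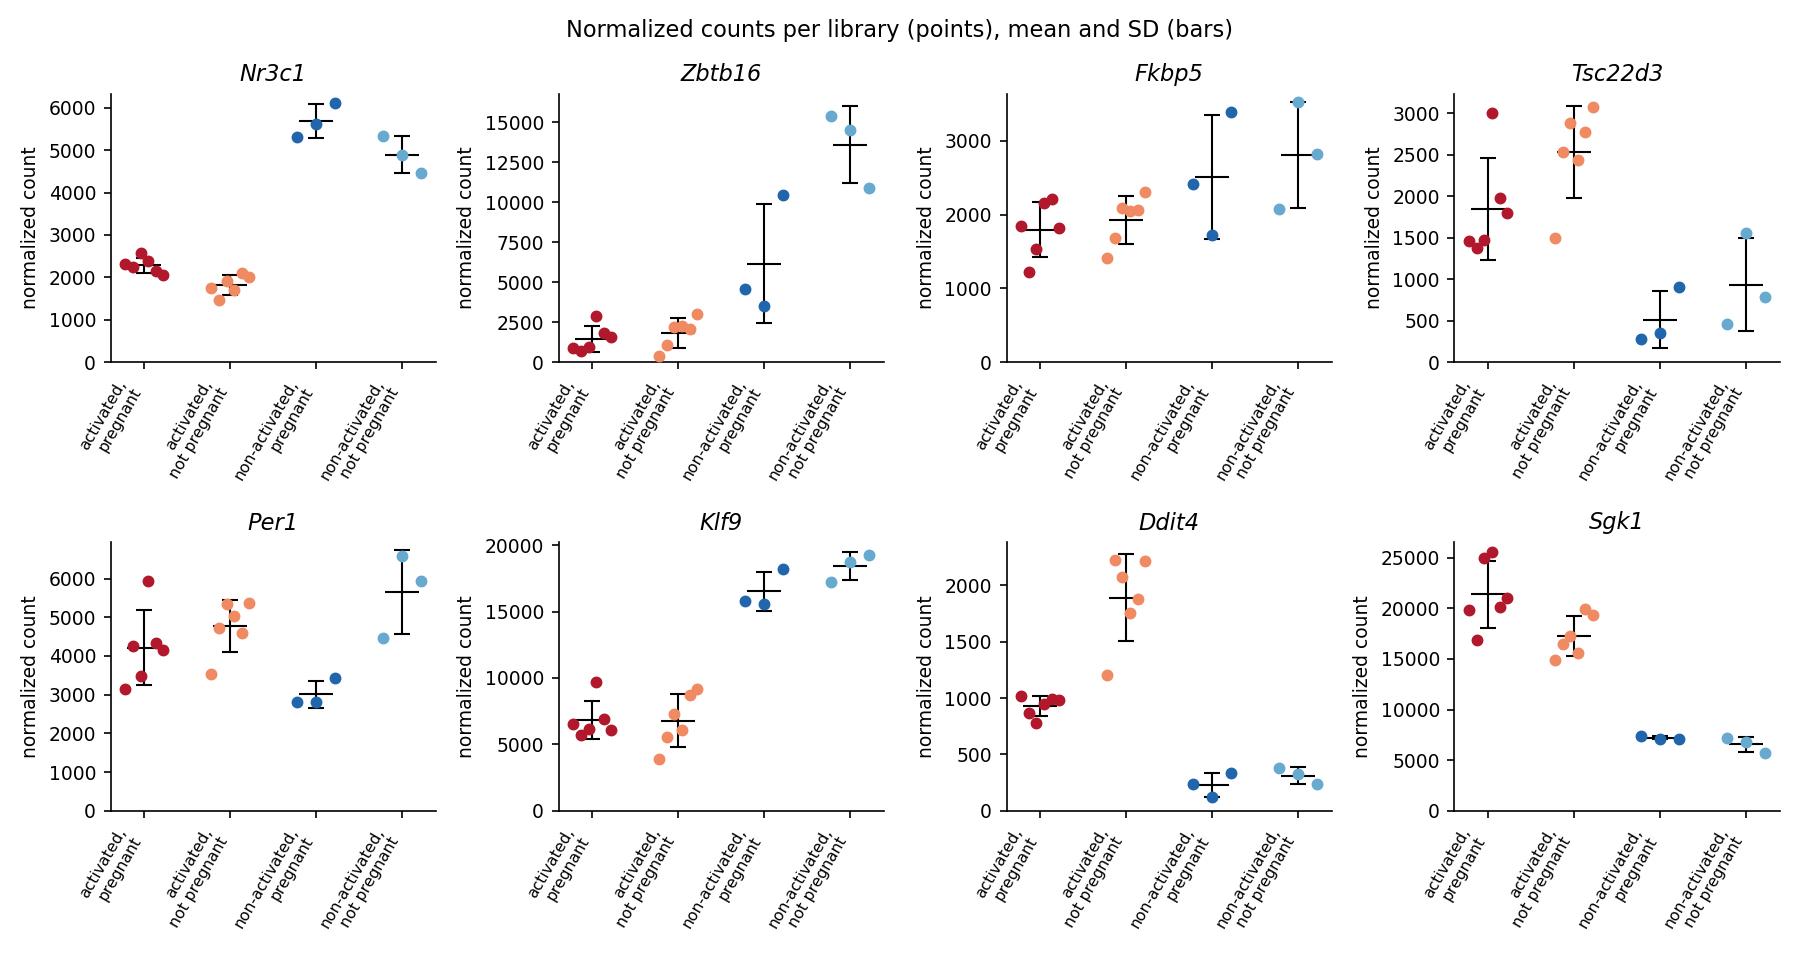
Normalized counts (vertical axes, each from 0) of the 8 genes in each library (points) of the 4 groups, with the mean and SD as bars. Ddit4 of activated cells lies at or below 1014 in the 6 libraries of pregnant mice and at or above 1203 in the 6 of virgin mice, and Nr3c1 and Klf9 are lower in every activated library than in every non-activated one.

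In activated cells, 2 of the 8 genes passed the test of pregnancy: Nr3c1 was higher and Ddit4 lower in pregnant mice. Of 10499 genes tested, 27.5% passed, 14% higher and 13.4% lower, so 2 of 8 is close to the share of all genes. That share turns with the fit: with all 4 groups in 1 fit 578 genes passed, and Nr3c1 and Ddit4 still did. In non-activated cells, Zbtb16 and Per1 were lower in pregnant mice and the other 6 did not pass. There, 4.62% of 10447 genes passed, 2.88% higher and 1.74% lower, and the share of calls that were higher, 62.3%, was 46% with total count scaling. With all 4 groups in 1 fit 2485 genes passed in non-activated cells, and 1 of the 8 did. The non-activated shares of all genes given here and below therefore hold only for the fit of the groups compared. The median log2 change of the 8 genes was -0.15 in activated cells and -0.36 in non-activated cells, against -0.01 and -0.02 over all genes tested. All tests used limma on log2(normalized count + 1) with Benjamini-Hochberg adjusted p-values across the genes tested, and called a gene at an adjusted p below 0.05. In bulk RNA, fewer cells of a type and less RNA per cell cannot be told apart.

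**Figure D2:**
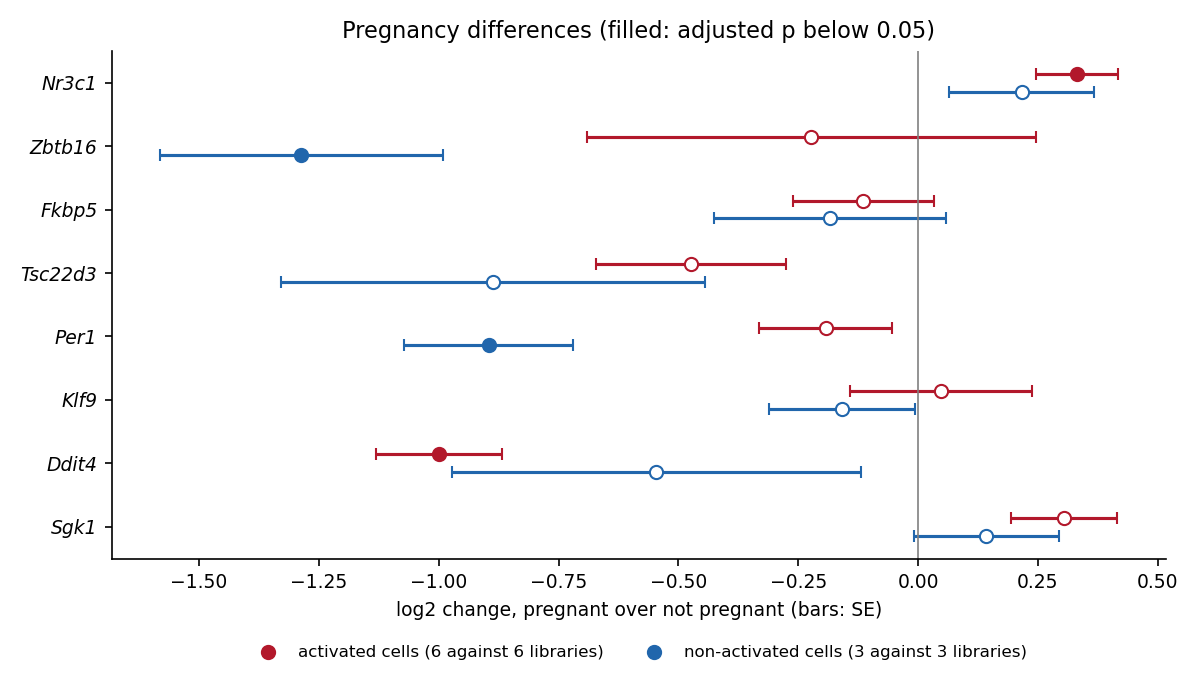
Log2 change of each gene between pregnant mice and virgin mice, with its SE, in activated cells (red) and non-activated cells (blue); filled points passed the test. Ddit4 at -1.0 and Nr3c1 at 0.33 are filled in activated cells, and Zbtb16 at -1.29 and Per1 at -0.90 in non-activated cells.

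Nr3c1 lies on chromosome 18 (39410545 to 39491301, minus strand, GRCm38). Activated cells of pregnant mice had 2065, 2276 and 2563 normalized counts (lowest, median, highest), against 1464, 1831 and 2113 in activated cells of virgin mice. The non-activated libraries (replicates 1, 2 and 3 in order) had 5314, 5623 and 6101 in pregnant mice and 5327, 4891 and 4464 in virgin mice. In activated cells, 5 of the 6 libraries of pregnant mice exceeded every library of the other group, while the non-activated groups overlapped by 1 library. The activated means were 2286 ± 176 in pregnant and 1826 ± 235 in virgin mice (SD, n = 6 each). The receptor's log2 change with pregnancy was 0.33 ± 0.09 in activated cells (SE; 1.26-fold, adjusted p = 0.0143) and 0.22 ± 0.15 in non-activated cells (adjusted p = 0.483). Under all 22 alternative settings the activated value stayed between 0.25 and 0.38, with adjusted p of 0.009 to 0.0334. Nr3c1 was lower in activated than in non-activated cells, by a log2 change of -1.31 ± 0.10 in pregnant mice (adjusted p = 1.73e-09) and -1.43 ± 0.10 in virgin mice (adjusted p = 4.32e-10). Every non-activated library was above every activated one. With each library's trend with genomic span taken out, these changes were -0.59 in both pregnant and virgin mice and still passed.

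Fkbp5 (chromosome 17, 28399095 to 28517524, minus strand) encodes an Hsp90 cochaperone that lowers the receptor's affinity for hormone and is itself a textbook receptor target. Its normalized counts were 1224, 1831 and 2209 (lowest, median, highest) in activated cells of pregnant mice and 1411, 2056 and 2301 in activated cells of virgin mice. Non-activated cells (replicates 1, 2 and 3 in order) had 2414, 1720.2 and 3391 in pregnant mice and 2077, 3520.1 and 2818 in virgin mice. All 4 groups overlapped, and neighbours in the order of means did not differ beyond their spread. Pregnancy gave log2 changes of -0.11 ± 0.15 in activated cells (adjusted p = 0.583) and -0.18 ± 0.24 in non-activated cells (adjusted p = 0.749). Between activated and non-activated cells the log2 change was -0.46 ± 0.22 in pregnant mice (adjusted p = 0.0674) and -0.52 ± 0.22 in virgin mice (adjusted p = 0.0375). The last call is lost with total count scaling (adjusted p = 0.161) and turns to a higher level, 0.70, once each library's trend with genomic span is taken out (adjusted p = 0.00692).

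Tsc22d3 (chromosome X, 140539528 to 140600659, minus strand) encodes GILZ, a leucine zipper protein through which glucocorticoids restrain NF-kappaB and AP-1. It had 1376, 1636 and 3007 normalized counts (lowest, median, highest) in activated cells of pregnant mice, against 1500.4, 2655 and 3079 in activated cells of virgin mice. In non-activated cells (replicates 1, 2 and 3 in order) it had 283, 347 and 911 in pregnant mice and 465, 1557 and 784 in virgin mice. Replicate 4 of the activated cells of pregnant mice stood above the rest of its group, and replicate 1 of the activated cells of virgin mice stood below the rest of its own. The pregnancy change missed the threshold in activated cells, at -0.47 ± 0.20 (adjusted p = 0.0859), and in non-activated cells, at -0.89 ± 0.44 (adjusted p = 0.309). Leaving out either of those libraries alone brings the activated change past it, to -0.63 without the pregnant one (adjusted p = 0.0183) and -0.62 without the other (adjusted p = 0.0177). Each is the extreme of its group, so leaving it out lowers the change by construction and lends no support to a direction. Of the 12 omissions of a single library, 10 left the change uncalled (adjusted p up to 0.166). The authors' deposited table gives -0.46 with an adjusted p of 0.417. Tsc22d3 was higher in activated than in non-activated cells, at 1.99 ± 0.36 in pregnant mice (adjusted p = 7.67e-05) and 1.58 ± 0.36 in virgin mice (adjusted p = 0.000737). In virgin mice 1 activated library overlapped the non-activated range.

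Zbtb16 (chromosome 9, 48654311 to 48835945, minus strand) encodes PLZF, a zinc finger transcriptional repressor strongly induced by glucocorticoids in many cell types. Activated cells of pregnant mice had 708, 1263 and 2871 normalized counts (lowest, median, highest), and activated cells of virgin mice had 361, 2147 and 3012. Non-activated cells of pregnant mice (replicates 1, 2 and 3 in order) had 4552, 3528.5 and 10419, against 15408, 14525 and 10873 in the same order in non-activated cells of virgin mice. Every non-activated library of pregnant mice was below every one of virgin mice, but replicate 3 of the pregnant mice came close to them; the means were 6167 ± 3718 and 13602 ± 2405 (SD, n = 3 each). The non-activated change was -1.29 ± 0.30 (2.44-fold lower, adjusted p = 0.0214), and the activated one was -0.22 ± 0.47 (adjusted p = 0.746). The non-activated call does not survive the fit of all 4 groups (adjusted p = 0.145) or leaving out any of 3 libraries (adjusted p up to 0.127), and the authors' deposited table gives Zbtb16 a log2 fold change of -1.14 there with an adjusted p of 0.13. Activated cells had far less Zbtb16 than non-activated cells, at -2.08 ± 0.54 in pregnant mice (4.23-fold lower, adjusted p = 0.00213) and -3.15 ± 0.54 in virgin mice (8.85-fold lower, adjusted p = 3.91e-05), with no overlap of libraries. With the span trend taken out the pregnant value was -0.63 and not called (adjusted p = 0.307), and the virgin value was -1.45 (adjusted p = 0.0229).

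Klf9 (chromosome 19, 23141226 to 23166911, plus strand) encodes a Krüppel-like transcription factor that acts downstream of several nuclear receptors and opposes proliferation. Its activated libraries had 5673, 6327 and 9700.5 normalized counts (lowest, median, highest) in pregnant mice and 3878, 6681 and 9158 in virgin mice. Its non-activated libraries (replicates 1, 2 and 3 in order) had 15803, 15537 and 18225 in pregnant mice and 17249, 18732 and 19272 in virgin mice. Pregnant and not pregnant libraries overlapped in both states, whereas activated and non-activated libraries did not. The pregnancy change was 0.05 ± 0.19 in activated cells (adjusted p = 0.87) and -0.16 ± 0.15 in non-activated cells (adjusted p = 0.633). Klf9 was lower in activated than in non-activated cells, by -1.29 ± 0.21 in pregnant mice (2.45-fold lower, adjusted p = 2.11e-05) and -1.50 ± 0.21 in virgin mice (2.83-fold lower, adjusted p = 3.37e-06). With the span trend taken out these changes were -1.48 and -1.72, and Klf9 kept its call under each of the 18 alternatives in both comparisons.

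Per1 (chromosome 11, 69095217 to 69109960, plus strand) encodes a repressor of the circadian clock and links the daily corticosterone peak to that clock. It had 3138, 4209 and 5941 normalized counts (lowest, median, highest) in activated cells of pregnant mice, against 3545, 4884 and 5369 in activated cells of virgin mice. Non-activated cells (replicates 1, 2 and 3 in order) had 2807, 2815 and 3419.7 in pregnant mice and 4462, 6579 and 5933 in virgin mice. All 3 non-activated libraries of pregnant mice were below all 3 of virgin mice, while the activated groups overlapped. The non-activated means were 3014 ± 352 in pregnant and 5658 ± 1085 in virgin mice (SD, n = 3 each). The change was -0.90 ± 0.18 in non-activated cells (1.86-fold lower, adjusted p = 0.00831) and -0.19 ± 0.14 in activated cells (adjusted p = 0.311). Leaving out replicate 2 of either non-activated group moves the first to an adjusted p of 0.0596 or 0.0539, at -0.78 and -0.85, and the authors' deposited table gives -0.91 with an adjusted p of 0.000109. Between activated and non-activated cells Per1 was higher in pregnant mice, at 0.46 ± 0.17 (adjusted p = 0.0216), and at -0.24 ± 0.17 in virgin mice (adjusted p = 0.212). The pregnant value becomes -0.13 and the other -0.89 with the span trend taken out (adjusted p = 0.529 and 0.000164). The hour at which muscles were taken was not given in the sources used here.

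Ddit4 (chromosome 10, 59949675 to 59951770, minus strand) encodes REDD1, an inhibitor of mTORC1 that is induced by glucocorticoids and also by hypoxia, by ATF4 and by p53. Its normalized counts were 779, 965 and 1014 (lowest, median, highest) in activated cells of pregnant mice, against 1203, 1977 and 2226 in activated cells of virgin mice. In non-activated cells (replicates 1, 2 and 3 in order) they were 234, 118 and 333 in pregnant mice and 379.9, 323 and 234 in virgin mice. Every activated library of pregnant mice lay below every activated library of virgin mice; the means were 930.3 ± 91.4 and 1891 ± 385 (SD, n = 6 each). The change had the lowest adjusted p of the 8 genes, at -1.0 ± 0.13 (2.0-fold lower, adjusted p = 0.000382), and it held under all 22 alternatives, at -1.13 to -0.82 with adjusted p up to 0.00709. The non-activated change was -0.55 ± 0.43 (adjusted p = 0.537). Activated cells had more Ddit4 than non-activated cells, at 2.14 ± 0.25 in pregnant mice (4.41-fold, adjusted p = 2.99e-07) and 2.59 ± 0.25 in virgin mice (6.03-fold, adjusted p = 1.89e-08). Ddit4 has the shortest genomic span of the 8, 2.1 kb, and with the span trend taken out these changes shrink to 0.54 (adjusted p = 0.0556) and 0.67 (adjusted p = 0.0205).

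Sgk1 (chromosome 10, 21882184 to 21999903, plus strand) encodes a serum and glucocorticoid regulated kinase that acts on ion transport, cell survival and FOXO factors. Activated cells of pregnant mice had 16843, 20596 and 25558 normalized counts (lowest, median, highest), against 14913, 16869 and 19892 in activated cells of virgin mice. Non-activated cells (replicates 1, 2 and 3 in order) had 7409, 7136 and 7089 in pregnant mice and 7219.7, 6745 and 5728 in virgin mice. The activated groups overlapped each other, and every activated library was above every non-activated one. The pregnancy change missed the threshold in activated cells, at 0.30 ± 0.11 (adjusted p = 0.0545). It passed with total count scaling (adjusted p = 0.0368) and with voom weights (adjusted p = 0.0488). With the span trend taken out it was 0.20 and did not pass (adjusted p = 0.168), and the authors' deposited table gives 0.31 with an adjusted p of 0.0828. In non-activated cells the pregnancy change was 0.14 ± 0.15 (adjusted p = 0.676). Sgk1 was higher in activated than in non-activated cells, at 1.55 ± 0.13 in pregnant mice (2.94-fold, adjusted p = 3.73e-09) and 1.39 ± 0.13 in virgin mice (2.62-fold, adjusted p = 1.45e-08). With the span trend taken out these changes were 2.60 and 2.61.

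Whether pregnancy acted differently in activated and non-activated cells was tested as an interaction, in a fit of all 4 groups. The limma test called 0 of the 8 genes, against 15.1% of 10751 genes tested (52% of those calls were positive, 67.2% with total count scaling); limma with voom weights also called 0, and 1 of the 8, Per1, had an unadjusted p below 0.05. Per1 gave 0.70 ± 0.24 (adjusted p = 0.0568), with adjusted p of 0.0256 to 0.556 over 26 alternatives. For Zbtb16 the interaction was 1.06 ± 0.77 (adjusted p = 0.362), and for Ddit4 it was -0.45 ± 0.35 (adjusted p = 0.398). Without replicate 2 of the non-activated cells of pregnant mice, the Ddit4 interaction was -0.87 and passed (adjusted p = 0.0473); leaving out each library in turn gave -0.87 to -0.12. In the fit of all libraries with deposited normalized counts and no replicate block, none of the 4 genes called by pregnancy in 1 state was shown to differ between the states.

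Between activated and non-activated cells, which also differ in kit, 7 of the 8 genes passed in pregnant mice, 4 higher and 3 lower. In virgin mice 7 passed as well, 3 higher and 4 lower. Of all 10751 genes, 72.8% passed in pregnant mice (40.3% higher, 32.6% lower) and 72.6% in virgin mice (39% higher, 33.6% lower). Nr3c1, Zbtb16 and Klf9 were lower in both, and Tsc22d3, Ddit4 and Sgk1 higher in both, with Fkbp5 and Per1 called in 1 each. The median change was 0.00 over the 8 genes and 0.21 over all genes in pregnant mice, and -0.38 and 0.17 in virgin mice. Scaling to the total count shifts the all-gene median to 0.50 and 0.36, and no member turned direction under it.

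**Figure D3:**
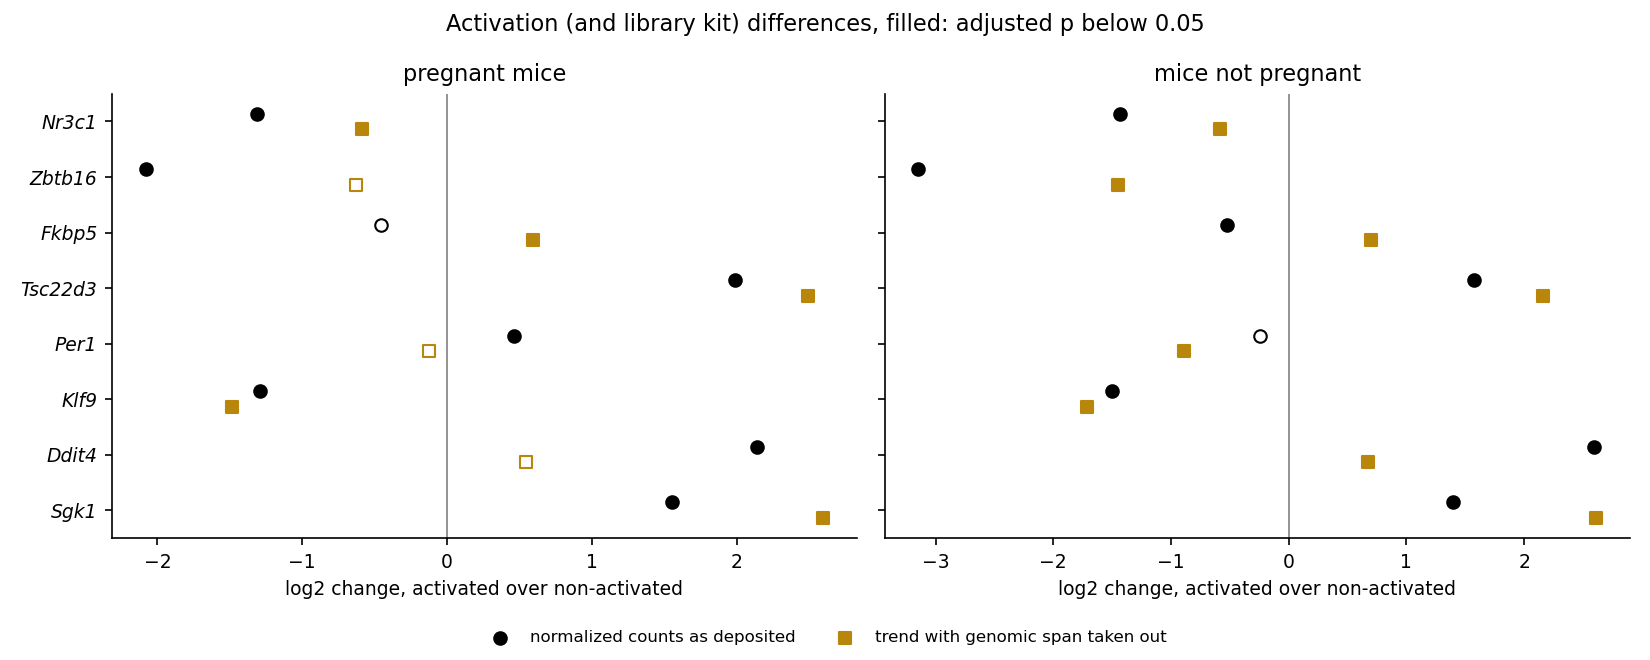
Log2 change of each gene between activated and non-activated cells, with normalized counts as deposited (black circles) and with each library's trend with genomic span taken out (gold squares), in pregnant mice (left) and virgin mice (right); filled points passed the test. Nr3c1, Zbtb16, Tsc22d3, Klf9, Ddit4 and Sgk1 keep their direction in both panels, Fkbp5 changes side in both, and Per1 changes side in pregnant mice.

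Genes that work with the receptor were counted from lists chosen with earlier results of these data known. Chaperones and cochaperones of the receptor were lower in activated cells of pregnant mice in 6 of 12 tested, with none higher and a list median of -0.23, against 13.4% of all genes lower. They included Ptges3, the p23 cochaperone, at -0.37 ± 0.08 (adjusted p = 0.00561), and Fkbp4, which encodes FKBP52 and helps the receptor reach the nucleus, at -0.40 ± 0.11 (adjusted p = 0.019). With the span trend taken out 4 of the 12 were lower, with a median of -0.14. Without replicate 4 of the pregnant and replicate 1 of the virgin mice 4 were lower, with a median of -0.18. With upper quartile scaling 7 were lower. In non-activated cells 1 rose and 1 fell: Hsp90aa1 at 0.72 ± 0.15 (adjusted p = 0.015) and Fkbp4 at -0.82 ± 0.22 (adjusted p = 0.0446). Without replicate 3 of the non-activated cells of pregnant mice, 2 chaperones were higher and 0 lower. Among 10 coregulators in activated cells, Nrip1 rose (0.41 ± 0.08, adjusted p = 0.00505), Crebbp rose (0.38 ± 0.07, adjusted p = 0.00334) and Hdac3 fell (-0.23 ± 0.06, adjusted p = 0.0172). Of 8 genes of steroid receptors and glucocorticoid metabolism, Abcb1b, an efflux pump that can export steroids, was the single one called in activated cells, at 0.34 ± 0.08 (adjusted p = 0.00664), and both Abcb1a (1.56 ± 0.42, adjusted p = 0.0499) and Abcb1b (1.07 ± 0.21, adjusted p = 0.00755) were called of 7 in non-activated cells. In non-activated cells 1 of 7 was called with total count scaling, with upper quartile scaling and without replicate 3 of the pregnant mice. For all these lists, the share of all genes that passed was 27.5% in activated and 4.62% in non-activated cells. Nr3c2, the mineralocorticoid receptor, which binds corticosterone too and was singled out after its values were seen, was not called by pregnancy in activated cells (0.15 ± 0.17) or non-activated cells (-0.54 ± 0.18, adjusted p = 0.106).

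Further genes induced by glucocorticoids passed the test of pregnancy in both directions. In activated cells 3 of 31 rose and 4 fell, with a median of -0.07, a share no higher than the 27.5% of all genes that passed. These counts depended on the setting: 6 were higher and 1 lower with the span trend taken out, and 2 higher and 9 lower without replicate 4 of the pregnant and replicate 1 of the virgin mice, libraries picked for their target values. The risers were Il1r2, a decoy receptor for interleukin 1 (1.16 ± 0.35, adjusted p = 0.0259), Mertk, a receptor for apoptotic cells (0.82 ± 0.20, adjusted p = 0.0096), and Tgm2, a transglutaminase (0.72 ± 0.17, adjusted p = 0.00897). In non-activated cells 5 of 31 rose and 3 fell, against 2.88% higher and 1.74% lower of all genes in the fit of the groups compared. The largest changes were those of Angptl4, a secreted lipase inhibitor (2.70 ± 0.25, adjusted p = 4.26e-05), Cited2, a coactivator regulator (1.66 ± 0.29, adjusted p = 0.00409), and Mt2, a metallothionein (2.17-fold, adjusted p = 0.0206). With total count scaling the non-activated split was 3 higher and 4 lower. In the glucocorticoid-induced genes of muscle wasting, 4 of 14 were lower and none higher in activated cells of pregnant mice. Of all genes, 13.4% were lower and 14% higher, and 27.5% passed in either direction. The 4 included Klf15, a Krüppel-like factor of amino acid breakdown (-1.11 ± 0.29, adjusted p = 0.015). Eif4ebp1, a translation repressor under mTORC1 (-0.36 ± 0.09, adjusted p = 0.0129), and Bnip3, a mitophagy receptor (-0.32 ± 0.08, adjusted p = 0.0104), were also among them. Foxo1, a driver of atrophy genes, was lower in non-activated cells (-0.92 ± 0.15, adjusted p = 0.00288), where Glul (0.80 ± 0.19, adjusted p = 0.0273) and Ctsl (0.70 ± 0.16, adjusted p = 0.0229) were higher.

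Among genes that glucocorticoids repress, 6 of 11 were higher and none lower in activated cells of pregnant mice, with a median of 0.57, against 14% higher and 13.4% lower of all genes. Examples were Icam1, an adhesion molecule (0.88 ± 0.09, adjusted p = 8.74e-05), Il1b (1.58 ± 0.24, adjusted p = 0.000838) and Cxcl1 (0.77 ± 0.19, adjusted p = 0.0108), both secreted inflammatory signals. In non-activated cells 5 of 9 were higher, against 2.88% of all genes in the fit of the groups compared, with a median of 1.47. They were led by Ccl2, a monocyte attractant (3.25 ± 0.36, adjusted p = 0.000163), Cxcl1 (2.38 ± 0.26, adjusted p = 0.000143) and Icam1 (1.61 ± 0.23, adjusted p = 0.00112). Leukocytes express several of these genes. All 7 leukocyte markers tested were higher in activated cells of pregnant mice, with a median of 1.80, and their part in the activated result was not tested; in non-activated cells the leukocyte sum was lower in 2 of 3 libraries of pregnant mice than in any library of virgin mice, and the third lay within their range. Markers of fibro-adipogenic progenitors were also higher in activated cells of pregnant mice, in 9 of 14 with 1 lower.

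Per1 and Ddit4 also belong to other pathways. Of all genes, 14% were higher and 13.4% lower in activated cells of pregnant mice, and 2.88% and 1.74% in non-activated cells. Clock genes other than Per1 were higher in activated cells of pregnant mice in 5 of 17, including Rora (0.79 ± 0.16, adjusted p = 0.00468), Per2 (0.76 ± 0.15, adjusted p = 0.00445) and Nr1d2 (0.47 ± 0.10, adjusted p = 0.00541). Without replicate 4 of the pregnant and replicate 1 of the virgin mice 5 were higher and 4 lower. In non-activated cells, where Per1 itself was called, 0 of 17 passed, and 2 were lower with total count scaling. Of 13 genes of the ATF4 and hypoxia responses, which also induce Ddit4, Pdk1 was lower in activated cells of pregnant mice (-0.39 ± 0.10, adjusted p = 0.0129) and Ndrg1 higher in non-activated cells (0.97 ± 0.17, adjusted p = 0.00495). Around mTORC1 and mTORC2, Rictor, a subunit of mTORC2 (0.44 ± 0.10, adjusted p = 0.00769), and Tsc1 (0.20 ± 0.06, adjusted p = 0.0258) were higher and Akt1s1 lower (-0.27 ± 0.08, adjusted p = 0.0261) of 10 in activated cells of pregnant mice. Immediate early and dissociation genes, which rise during cell isolation, had 3 of 26 higher and 3 lower in activated cells. The largest of these changes were falls, in Btg2 (-0.97 ± 0.26), Ier2 (-0.58 ± 0.20) and Junb (-0.52 ± 0.17) (adjusted p = 0.0179, 0.0431 and 0.0381). With the span trend taken out 3 were higher and 1 lower. In non-activated cells 4 passed higher and 2 lower, with Ier5 at 2.21 ± 0.22, Fosl1 at 1.88 ± 0.15 and Fos at -1.24 ± 0.19 (adjusted p = 5.94e-05, 1.94e-05 and 0.00188). That split was 4 higher and 4 lower with total count scaling and with the span trend taken out.

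**Figure D4:**
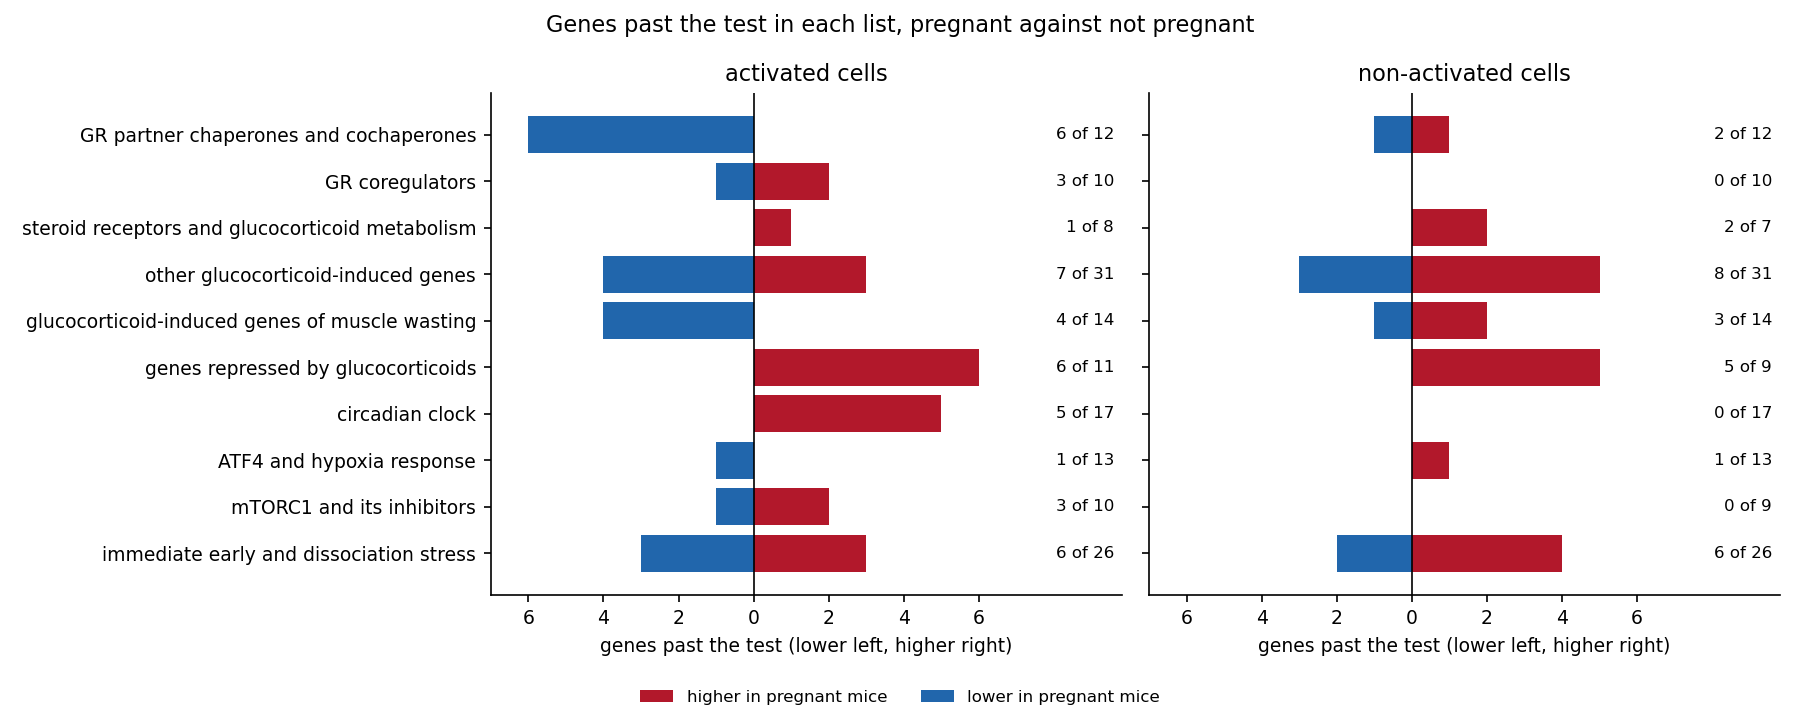
Number of genes past the test in each list, higher (red, to the right) or lower (blue, to the left) in pregnant mice than in virgin mice, in activated cells (left) and non-activated cells (right), with the number past the test of those tested at the right edge. The receptor's chaperones show 6 lower and none higher of 12 in activated cells, and genes repressed by glucocorticoids show 6 higher of 11 and 5 higher of 9.

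In the activation comparisons the counts of several of these lists depended on genomic span. Of all genes, 40.3% were higher and 32.6% lower in pregnant mice, and 39% higher and 33.6% lower in virgin mice. In virgin mice, receptor chaperones had 11 of 12 higher and none lower, against 7 higher and 2 lower with the span trend taken out. Coregulators had 1 of 10 higher and 9 lower, against 4 and 4. The other glucocorticoid-induced genes had 19 of 31 higher and 8 lower, against 9 and 12. Clock genes kept their side, lower in 11 of 17 as deposited and in 14 with the trend taken out. The immediate early and dissociation genes had 11 of 26 higher and 1 lower, against 1 and 19. In pregnant mice chaperones had 10 of 12 higher and none lower, against 5 and 2 with the trend taken out. Coregulators there had 1 higher and 9 lower of 10, against 5 and 5, and induced genes 18 higher and 7 lower of 31, against 7 and 8. Clock genes there had 3 higher and 12 lower of 17, against 0 and 12, and immediate early genes 6 higher and 3 lower of 26, against 1 and 19. Among genes with large changes, Rora had log2 changes of -3.82 ± 0.22 in pregnant mice (adjusted p = 2.29e-11) and -5.44 ± 0.22 in virgin mice (adjusted p = 1.57e-13). Nr3c2 had changes of -3.08 ± 0.20 in pregnant mice and -3.77 ± 0.20 in virgin mice (adjusted p = 1.4e-10 and 6.7e-12).

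Within the activated groups and the non-activated cells of pregnant mice, the 7 targets tended to be high or low in the same libraries. Whether other genes do so as often was not tested. Among activated cells of pregnant mice, replicate 4 had the highest value for 5 of the 7 targets and was above the group's mean log2 value for all 7, by a median of 0.52. Replicate 2 had the lowest value for 5. Among activated cells of virgin mice, replicate 1 had the lowest value for all 7 targets, by a median of 0.62 below the group mean, and replicate 6 the highest for 5. In the non-activated cells of pregnant mice, replicate 3 was highest for 6 of 7. In those of virgin mice the targets were split: replicates 1 and 2 were each highest for 3, and replicates 1 and 3 lowest for 4 and 3. The lowest and highest activated libraries of Nr3c1 were replicates 6 and 3 in pregnant mice and 2 and 5 in virgin mice.

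**Figure D5:**
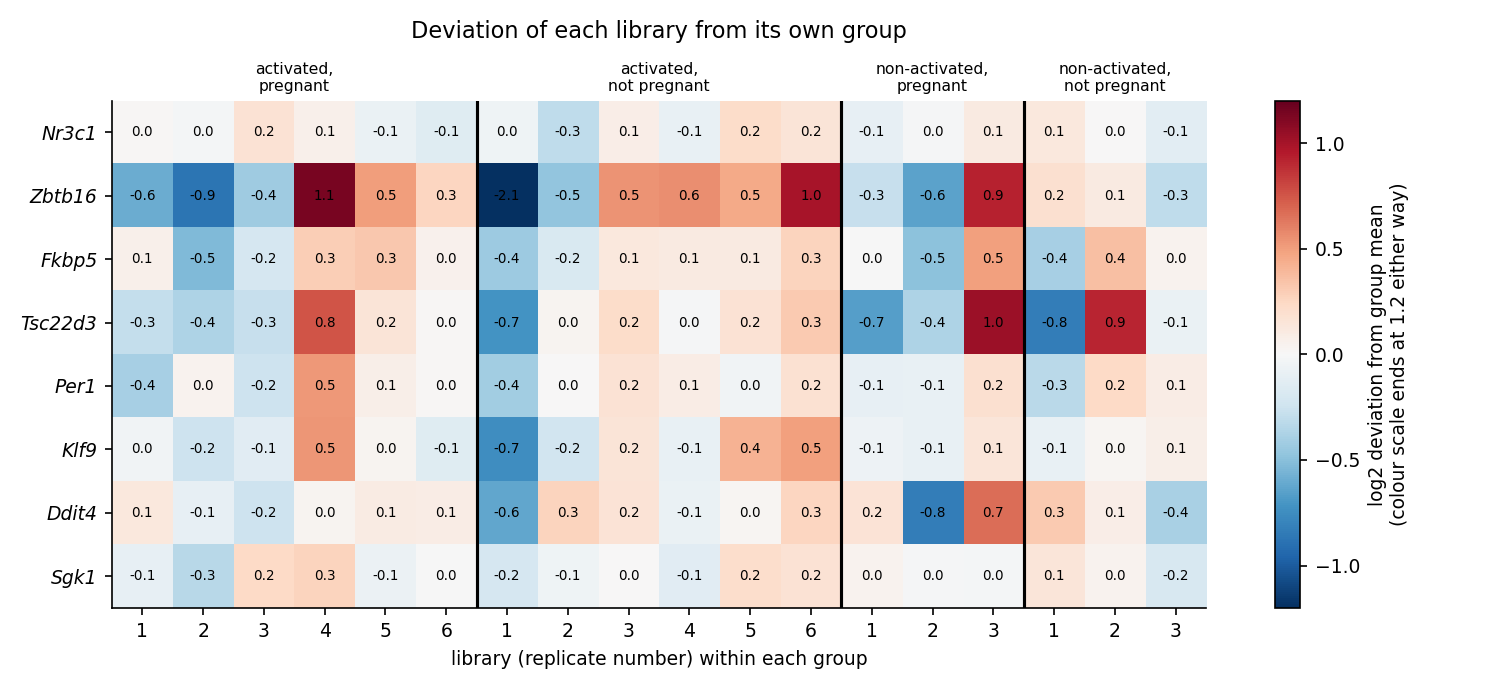
Log2 deviation of each gene in each library from the mean of its own group, by group and replicate number, red above and blue below the mean; numbers give the value. The column of replicate 1 of activated cells of virgin mice is blue for the 7 targets, down to -2.1 for Zbtb16, and that of replicate 4 of activated cells of pregnant mice is red, up to 1.1 for Zbtb16, while the Nr3c1 row runs from -0.31 to 0.22.

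Across the 6 activated libraries of pregnant mice, 20 of the 21 pairs of targets had a positive Pearson r of log2 values (median 0.63), and across those of virgin mice all 21 did (median 0.90). With exact permutation tests over 56 relations, 0 pairs passed at an adjusted p below 0.05, and 5 and 13 had an unadjusted p below 0.05. The lowest exact p of r that 6 libraries allow is 0.00139, which for a single pair adjusts to 0.0778. A single pair could therefore not pass alone, and no conclusion is drawn from the 0 pairs that passed. The pair with the highest r in pregnant mice was Zbtb16 with Tsc22d3, with r = 0.96 (exact p = 0.00139, adjusted p = 0.0778) and rho = 1.00 (exact p = 0.00278, adjusted p = 0.156), and r = 0.99 without the 2 libraries farthest from the median of Zbtb16. In virgin mice the same pair had r = 0.94 (exact p = 0.0236, adjusted p = 0.11) and rho = 0.66 (exact p = 0.175, adjusted p = 0.35), with r = 0.61 after the same step. Leaving out the 2 farthest libraries lowered the median r of the target pairs to 0.38 in pregnant mice and 0.59 in virgin mice. Pairs of Nr3c1 with a target had a median r of -0.14 in pregnant mice (2 of 7 positive) and 0.46 in virgin mice (7 of 7), and without the 2 farthest libraries 0.29 (6 of 7) and 0.68 (7 of 7).

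Other measures moved with these libraries. The summed normalized count of the immediate early and dissociation genes was 190001 in replicate 1 of activated cells of virgin mice, against 333428 to 467060 in the other 5 libraries of that group. In replicate 4 of activated cells of pregnant mice it was 403569, against 270947 to 320173 in the other 5. The satellite cell marker sum was lowest of its group in that replicate 1, at 88916, and highest of its group in that replicate 4, at 153162. So were the sums of clock genes (26259 and 38750) and of smooth muscle and pericyte markers (22105 and 43315). Other sums went the other way: receptor chaperones were lowest of their group in that replicate 4, at 123034. Coregulators were highest of their group in that replicate 1, at 25637. The part of these measures in the targets' values was not tested. Leaving out both libraries moves the targets towards lower values in pregnant mice by construction, since they were picked as the virgin library lowest and the pregnant library highest for most targets. The pregnancy changes in activated cells were then -0.86 for Zbtb16, -0.77 for Tsc22d3 and -0.38 for Per1, and they lend no support to a direction. Of the immediate early genes, 2 of 26 were then higher and 13 lower.

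By likeness of pattern over the 12 activated libraries, among 8710 genes with a mean of at least 100 normalized counts, the closest gene to Nr3c1 was Ccdc50 (Pearson r of log2 values 0.96), to Tsc22d3 Dguok (0.98), to Ddit4 Fam220a (0.97), to Klf9 Fzd4 (0.96), to Per1 Gas1 (0.95), to Sgk1 Twsg1 (0.93) and to Zbtb16 Foxo3 (0.94). The gene closest to Fkbp5 was another of the 8, Zbtb16, at 0.88. These libraries share a kit and differ in pregnancy, so the values describe the libraries and carry no test.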

How the data were processed

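The members and gene lists were chosen with earlier results of these data known. Per the submitters' processing notes, the tools include DESeq2 1.22.1, HTSeq 0.6.0, TopHat2 2.0.14 and cutadapt 1.12 and the genome build was GRCm38. The deposited table gives, per the file headers, raw and normalized counts per gene in each library, the authors' fold changes, and 6 columns of mature quadriceps from another project, which were not used. In the table, 36937 of 47729 genes hold text in place of values, so all columns were treated as another unit and no count model was run. Where values exist, the deposited normalized counts equal count over size factor within 4.8e-10.

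Genes with a normalized count of at least 10 in as many libraries as the smallest group were tested with limma 3.58.1 (trend; R 4.3.3) on log2(normalized count + 1), with Benjamini-Hochberg adjustment. All 8 members passed that filter in every comparison. Pregnancy was tested in fits of the groups compared, and the interaction and activation in a fit of all 4 groups. Fold changes understate the change of low genes. The procedure was tested on simulated data. Named genes of lists are those called with the largest changes, up to 3 a list for pregnancy and 2 for activation, with the nearest gene by likeness for each member; Nr3c2 was added after its values were seen. Alternatives were a pseudocount of 5, no filter, total count and upper quartile scaling, limma voom on raw counts, a spread for each group, removal of each library's trend with genomic span, the other choice of groups in the fit, a replicate block and leaving out each library; settings for list counts and the removal of 2 libraries together were chosen after seeing the data. Genomic span is the gene's extent on the genome, from its start to its end, introns included, so levels were not compared between genes. Total counts per library set the depth given with the results.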

Additional observations from a re-analysis of the deposited data

Results flagged for a closer look

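Of the 8 genes in the 2 groups of 6 libraries, 16 sets of values in all, 2 held a library far from the others of its group, and chance gives about 1 such set in 20. Both were replicate 4 of the activated cells of pregnant mice, as its highest value: Tsc22d3 at 3007.1 normalized counts and Klf9 at 9700.5. In each case the gap to the next library took up most of the group's whole range. Without that library the pregnancy change of Tsc22d3 in activated cells was -0.63 (adjusted p = 0.0183), and that of Klf9 was -0.06 (adjusted p = 0.836). Taking out the highest library of the pregnant group lowers both changes by construction. Groups of 3 libraries were not examined in this way.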

How the results depend on the processing

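Of 792 values of single members under the alternatives, 737 kept their direction and their side of the threshold, 21 passed it newly, 20 no longer passed it and 14 changed sign. The tally includes the removal of both extreme activated libraries, a setting chosen on the targets' values. That setting gave new passes of Zbtb16, Tsc22d3 and Per1 and a sign change of Klf9, for pregnancy in activated cells. The causes of these changes were not tested. In the fit of all 4 groups, pregnancy called 578 genes in activated and 2485 in non-activated cells, and 1 of the 8 members in non-activated cells. With a spread for each group the interaction called 12 genes. It called 1 member with total count scaling, with the span trend taken out and with the replicate block, Per1 in each (adjusted p = 0.0311, 0.0418 and 0.0364). The share higher among genes called by pregnancy in non-activated cells was 62.3%, 46% with total count and 51.9% with upper quartile scaling, and for the interaction 52%, 67.2% and 59.4%.

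Same-numbered libraries did not deviate together (r of -0.175 to 0.141 over genes, where genes are not independent replicates). The replicate block changed the counts of calls to 2177, 568, 1358, 6462 and 6327 genes for pregnancy in activated cells, pregnancy in non-activated cells, the interaction, activation in virgin mice and activation in pregnant mice. For activation the block kept only replicates 1, 2 and 3 of each group. Its effect there cannot be told apart from that of leaving out the other activated libraries. In that smaller set, the blocked fit in pregnant mice gave Fkbp5 an activation change of -0.68 (adjusted p = 0.00706) and Per1 one of 0.26 (adjusted p = 0.128).

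Leaving out 1 library at a time gave 1959 to 2840 genes and 2 to 3 members for pregnancy in activated cells, 224 to 435 genes and 0 to 2 members in non-activated cells, 1295 to 2302 genes and 0 to 1 members for the interaction, 7604 to 7823 genes and 6 to 8 members for activation in pregnant mice, and 7522 to 7675 genes and 6 to 7 members in virgin mice. The same step changed the sign of Klf9 by pregnancy in activated cells (-0.102 to 0.146, negative in 2 of the cases), of Fkbp5 by pregnancy in non-activated cells (-0.428 to 0.061), and in the interaction of Fkbp5 (-0.176 to 0.313) and Tsc22d3 (-0.042 to 0.925). Without both extreme activated libraries, a setting chosen on the targets' values that lowers them in pregnant mice by construction, 5 members were called by pregnancy and Klf9 stood at -0.21.

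With the span trend taken out, the interaction turned to 0.00 (-0.004) for Nr3c1, -0.11 for Fkbp5 and -0.01 (-0.013) for Sgk1, and activation to 0.59 for Fkbp5 and -0.13 for Per1 in pregnant mice and to 0.70 for Fkbp5 in virgin mice. With a spread for each group, activation in pregnant mice no longer called Zbtb16 (adjusted p = 0.17) or Per1 (adjusted p = 0.327), nor Fkbp5 in virgin mice (adjusted p = 0.182). The median r of target pairs in activated cells of pregnant mice was 0.52 with total count scaling. The number of libraries, 3 in each non-activated group, limits the precision of every comparison that uses them.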
